A study of Mus musculus with 6 samples.

Results

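The genes described here are 9 genes of fatty acid uptake and carriage, followed while mouse fat precursors turned into adipocytes: Lpl, Cd36, Slc27a1, Slc27a2, Slc27a3, Slc27a4, Fabp3, Fabp4 and Fabp5. They were taken by symbol from the 45808 gene lines of the count table, and all 9 were listed. Of these, 8 had counts and passed the filter on low counts, and Slc27a2 had 0 counts in every library. The cells were the stromal-vascular fraction of inguinal white fat from male mice 8 weeks old, wild-type in every group, in a series whose title concerns Naa10p and the heat production of beige adipocytes. The day 0 group was confluent cells before any inducer. The day 2 group had spent 2 days in a medium with IBMX (0.5 mM, a phosphodiesterase inhibitor), dexamethasone (5 µM, a glucocorticoid), indomethacin (125 µM, a cyclooxygenase inhibitor), insulin (850 nM), T3 (1 nM, thyroid hormone) and rosiglitazone (1 µM, an agonist of the nuclear receptor PPAR gamma). The day 6 group had then been kept on insulin, T3 and rosiglitazone alone, at the same doses, so the drug that activates PPAR gamma was present in both later groups and absent on day 0. Each day had 2 libraries of polyadenylated RNA, numbered 76 and 77.

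Adipocytes take up fatty acids that lipoprotein lipase, the product of Lpl, releases from triglyceride-rich lipoproteins in the capillary. CD36 binds long-chain fatty acids at the cell surface and helps them enter, the fatty acid transport proteins of the Slc27 family couple entry to the attachment of coenzyme A, and the small Fabp proteins carry fatty acids through the cytosol. Several of these genes are known targets of PPAR gamma, the receptor that rosiglitazone binds.

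Levels are CPM, the counts of a gene relative to the library size after adjustment by TMM factors, n = 2 libraries per day, and values in pairs are for library 76 and then library 77. Fold changes and their standard errors (SE, on the log2 scale) come from edgeR's quasi-likelihood test fitted to all genes, with p-values adjusted over the 14459 genes tested and a threshold of 0.05. The libraries of a day are biological replicates per the series design, but no source used here says that they came from separate mice or from separate cultures. The p-values therefore measure only how far these libraries spread, which may be technical. In bulk RNA, fewer cells that express a gene and less RNA of that gene per cell cannot be told apart. The libraries held 22522221 to 29458374 counts in genes. Of 8 adipocyte markers, 7 were tested and all 7 rose over each step. Among all tested genes, 33.6% rose from day 0 to day 2 and 38.2% from day 2 to day 6. The summed level of the 8 adipocyte markers went from 61 and 71.8 CPM on day 0 to 1600.1 and 1405 on day 2 and 17538 and 15642 on day 6. All 8 stromal progenitor markers were present on every day. Their sums were 2509 and 2519 CPM on day 0, 1306 and 1516 on day 2, and 848 and 1277 on day 6. Against day 0, 6 of the 8 were lower on day 2 and 7 on day 6, and the rest did not pass. The shares of all tested genes that were lower were 33.6% and 35.1%.

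The Fabp members show how far related carriers differ in sequence, which bears on whether reads of one can be counted for another. Below are bases 1 to 180 of the coding sequences of the 3 members, which run to 399 bases in Fabp4, 408 in Fabp5 and 402 in Fabp3 over 4 coding exons each, from the principal transcripts of the GENCODE M21 annotation on GRCm38. In Fabp4 and Fabp5, capitals mark the longest stretch that those genes share in the whole coding sequence, 12 bases long. In Fabp3, they mark the longest stretch that it shares with Fabp4, 14 bases long.
Fabp4: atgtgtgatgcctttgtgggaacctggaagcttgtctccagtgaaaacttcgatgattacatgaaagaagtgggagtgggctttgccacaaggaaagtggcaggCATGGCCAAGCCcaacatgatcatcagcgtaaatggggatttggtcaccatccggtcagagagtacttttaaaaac
Fabp5: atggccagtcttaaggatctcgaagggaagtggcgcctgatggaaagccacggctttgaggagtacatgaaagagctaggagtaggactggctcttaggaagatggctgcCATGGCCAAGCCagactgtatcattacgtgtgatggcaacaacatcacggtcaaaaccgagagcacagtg
Fabp3: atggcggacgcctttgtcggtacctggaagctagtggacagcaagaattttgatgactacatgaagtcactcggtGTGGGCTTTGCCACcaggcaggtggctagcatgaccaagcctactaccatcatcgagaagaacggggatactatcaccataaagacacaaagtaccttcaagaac
Identity over the whole aligned coding sequences was 60.8% between Fabp4 and Fabp5, 65.3% between Fabp4 and Fabp3, and 56.8% between Fabp5 and Fabp3. Within the whole coding sequence no stretch longer than 14 bases was common to any pair. The 50-base stretches of the principal transcript were sought in the annotated transcripts of other genes, on either strand. Of these stretches, 0% were found there for Fabp4, 21.1% for Fabp5 and 37.3% for Fabp3. Over all transcripts of Fabp5 the share was 5.48%. The rest of the genome was not searched. Of the exonic length of Fabp3, 19.6% overlaps another annotated gene. Counts of Fabp3, and to a lesser degree of Fabp5, are uncertain where reads could be shared with other genes.

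Positions in GRCm38 and exon numbers are those of the same annotation, in which every member is a protein-coding gene. Lpl lies on chromosome 8 from 68880491 to 68907448 (plus strand, 10 exons in the principal transcript), and Slc27a1 lies on the same chromosome from 71568882 to 71587302 (plus, 14 exons). Cd36 lies on chromosome 5 from 17781690 to 17888801 (minus, 15 exons). Chromosome 2 holds Slc27a2 from 126552407 to 126588243 (plus, 10 exons) and Slc27a4 from 29802634 to 29817522 (plus, 13 exons). Fabp4 from 10204088 to 10208576 (minus) and Fabp5 from 10012548 to 10016607 (plus), with 4 exons each, are near neighbours on chromosome 3, which also holds Slc27a3 from 90385239 to 90389938 (minus, 10 exons). Fabp3 lies on chromosome 4 from 130308595 to 130315463 (plus, 4 exons).

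Lpl, the lipase, was already well expressed before induction. Its level was 725 and 820.4 CPM on day 0, 5190.4 and 4943 on day 2, and 14467 and 12680 on day 6. The libraries of the 3 days did not overlap, and each day lay above the one before. Lpl rose 6.56-fold in induction medium (log2 change 2.71, SE 0.14; adjusted p = 1.67e-06 by edgeR) and a further 2.68-fold by day 6 (1.42, SE 0.13; adjusted p = 2.73e-05), which made 17.6-fold in all.

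Cd36, the surface receptor for long-chain fatty acids, started from a very low level. It measured 5.2 and 7.83 CPM on day 0, 403 and 444 on day 2, and 4321 and 3695 on day 6, again with no overlap between days. This was the largest overall change of the 8 tested members, 621-fold from day 0 to day 6 (log2 change 9.28, SE 0.23; adjusted p = 2.83e-08 by edgeR). The early step was 65.6-fold (6.04, SE 0.20; adjusted p = 3.45e-07) and the later step 9.46-fold (3.24, SE 0.17; adjusted p = 1.32e-06).

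The Slc27 transporters did not move as a family. Slc27a1, which encodes FATP1, the family member best known from adipocytes and muscle, measured 22.5 and 19.6 CPM on day 0, 78.6 and 68.8 on day 2, and 1388 and 1271 on day 6. Most of its rise came late: 3.5-fold in induction medium (log2 change 1.81, SE 0.11; adjusted p = 3.97e-06 by edgeR) and 18-fold from day 2 to day 6 (4.17, SE 0.12; adjusted p = 2e-07). Its overall change was 63.2-fold.

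Slc27a4, which encodes FATP4, the transporter known from intestine and skin, changed far less. Its level was 56.3 and 55.8 CPM on day 0, 70.2 and 63.1 on day 2, and 134 and 114 on day 6. All 3 days were apart, by a narrow margin between days 0 and 2. The early change was 1.19-fold (log2 change 0.25, SE 0.09; adjusted p = 0.0432 by edgeR), a call that was lost without library 76 of day 0 (adjusted p = 0.14) and without library 76 of day 2 (0.233), with a range of 0.00595 to 0.233 over 11 alternative settings. The later change was 1.86-fold (0.90, SE 0.09; adjusted p = 5.27e-05), and day 6 stood 2.21-fold above day 0 (1.15, SE 0.09; adjusted p = 1.08e-05).

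Slc27a3, the FATP3 gene, whose protein is better known as an acyl-CoA synthetase than as a transporter, went the other way. It held 21.5 and 20.7 CPM on day 0 and 20.6 and 21.3 on day 2, where the libraries overlapped, and then 9.02 and 13.7 on day 6, below all the others. The log2 change to day 2 was -0.01 (SE 0.16; adjusted p = 0.953 by edgeR). From day 2 to day 6 the gene fell 1.85-fold (log2 change -0.89, SE 0.17; adjusted p = 0.00162), although the day 6 libraries differed from each other by more than those of the earlier days.

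Slc27a2, the gene of FATP2, a transporter known from liver and kidney, had 0 counts in all 6 libraries, which allows at most 0.0993 to 0.15 CPM (3 counts) per library, for counting error only. Both remaining family genes were fixed in the lists as well. Slc27a6, which encodes FATP6, known from heart, stood at 13.6 and 12.4 CPM on day 0, 2.48 and 2.52 on day 2, and 1.12 and 2.49 on day 6. It fell 5.21-fold in induction medium (log2 change -2.38, SE 0.25; adjusted p = 6.14e-05 by edgeR), and its later change of -0.49 did not pass (SE 0.32; adjusted p = 0.205). Slc27a5, the bile acid-CoA ligase of liver, had 1 count on day 0, 3 on day 2 and 1 on day 6 over both libraries and was not tested.

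The promoters of the 3 measured Slc27 members are shown because these genes took 3 different courses: Slc27a1 climbed steeply, Slc27a4 climbed a little and Slc27a3 fell. Of the 9 members, 6 matched a RefSeq window. Each sequence is the 250 bases before the RefSeq start (GRCm38.p6), written along the gene's own strand: chr8:71568621-71568870 (plus) for Slc27a1, chr2:29802384-29802633 (plus) for Slc27a4 and chr3:90389939-90390188 (minus) for Slc27a3. Slc27a1 had 3 RefSeq windows, and the one nearest the start of the GENCODE principal transcript was taken, 56 bases from it. Bases just after that RefSeq start were not found in any GENCODE transcript of Slc27a1, so its start is uncertain. Capitals mark every match, on either strand, to the letters of 4 elements, and no matches overlap. The elements were the TATA box with the letters TATAAA, the binding box of the factor NF-Y with the letters CCAAT, the GC box with the letters GGGCGG, and the core element of nuclear receptors with the letters AGGTCA.
Slc27a1: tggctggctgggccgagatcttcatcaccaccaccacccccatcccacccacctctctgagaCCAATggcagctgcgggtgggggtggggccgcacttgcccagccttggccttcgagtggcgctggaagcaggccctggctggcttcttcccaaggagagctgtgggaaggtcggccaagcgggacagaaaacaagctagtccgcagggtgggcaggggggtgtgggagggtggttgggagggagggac
Slc27a4: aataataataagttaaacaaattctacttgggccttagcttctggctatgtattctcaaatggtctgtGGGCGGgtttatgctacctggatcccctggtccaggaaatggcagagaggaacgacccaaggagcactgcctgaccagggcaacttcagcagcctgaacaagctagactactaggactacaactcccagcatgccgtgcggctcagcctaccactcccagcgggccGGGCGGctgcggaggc
Slc27a3: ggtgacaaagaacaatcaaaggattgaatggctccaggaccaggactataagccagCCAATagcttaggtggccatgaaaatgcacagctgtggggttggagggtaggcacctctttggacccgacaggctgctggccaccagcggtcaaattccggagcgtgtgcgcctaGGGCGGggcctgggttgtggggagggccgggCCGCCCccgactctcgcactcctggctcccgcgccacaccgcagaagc
Slc27a1 held 1 CCAAT match, Slc27a4 held 2 GGGCGG matches, and Slc27a3 held 1 CCAAT and 2 GGGCGG matches. TATAAA and AGGTCA did not occur in these windows. Among 32851 RefSeq windows of the same length, 33.8% held CCAAT, 32.7% GGGCGG, 12.4% TATAAA and 14% AGGTCA. GC content was 66.4% for Slc27a1, 54.4% for Slc27a4 and 62.4% for Slc27a3. The matches describe letters only and say nothing of which factor binds.

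**Figure D1:**
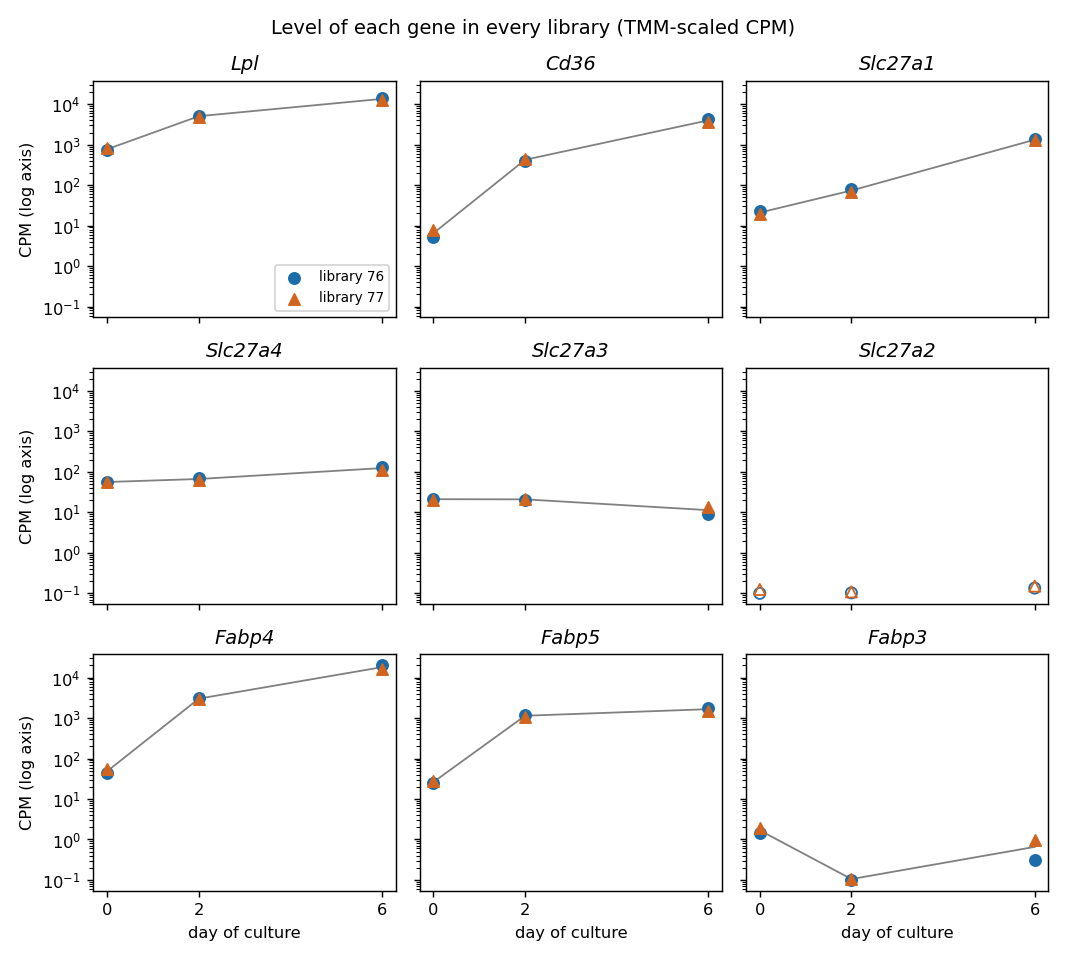
Level of each member in every library, in CPM on a log scale, by day. Points are single libraries, lines join the day means, and open symbols for Slc27a2, which had 0 counts, stand at the floor of 3 counts. Cd36, Fabp4 and Fabp5 climb most between days 0 and 2, Slc27a1 climbs most between days 2 and 6, and Slc27a3 and Fabp3 end below where they began.

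Among the carriers, Fabp4, the adipocyte fatty acid-binding protein also called aP2, reached the highest per-length level of any member. It measured 43.5 and 53.7 CPM on day 0, 3108 and 2932 on day 2, and 20320.5 and 15950 on day 6, and no day overlapped another. Fabp4 alone made up 1.72% and 1.42% of all gene counts on day 6. Its change was 62.2-fold in induction medium (log2 change 5.96, SE 0.20; adjusted p = 3.43e-07 by edgeR) and 6-fold afterwards (2.59, SE 0.17; adjusted p = 4.14e-06), or 374-fold overall.

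Fabp5, the carrier first described in the epidermis, rose steeply at first and then little. Its level was 24.6 and 27.9 CPM on day 0, 1211 and 1073 on day 2, and 1816 and 1502 on day 6. The early rise was 43.5-fold (log2 change 5.44, SE 0.15; adjusted p = 2.14e-07 by edgeR). The later rise was 1.45-fold (0.54, SE 0.12; adjusted p = 0.00462). That later call did not hold with library totals as the scaling (log2 change 0.18; adjusted p = 0.224) or without library 77 of day 2 (adjusted p = 0.0549), with a range of 7.58e-08 to 0.224 over 11 settings.

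Fabp3, the carrier of heart and muscle, was scarce throughout and is given in counts. The table holds 44 and 46 counts on day 0, 3 and 3 on day 2, and 7 and 20 on day 6, which correspond to 1.46 and 1.89 CPM, 0.102 and 0.108, and 0.313 and 0.997. Every later library lay below both day 0 libraries, and the day 6 libraries differed widely from each other. Fabp3 fell 15.2-fold by day 2 (log2 change -3.93, SE 0.61; adjusted p = 0.000559 by edgeR). It passed the filter on low counts only through its day 0 level, so its fall is bound up with its having been tested at all.

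The partial return of Fabp3 by day 6 rested on few counts. The change from day 2 was 5.9-fold upwards (log2 change 2.56, SE 0.72; adjusted p = 0.0133 by edgeR), and the call was lost without library 77 of day 6 (adjusted p = 0.12), library 76 of day 2 (0.0687) or library 77 of day 2 (0.0624), with a range of 0.000148 to 0.12 over 11 settings. Day 6 remained below day 0 by 2.58-fold (-1.37, SE 0.47; adjusted p = 0.0293). That call was lost with DESeq2 (adjusted p = 0.085) and without library 76 of day 0 (0.0609), library 77 of day 0 (0.142), library 77 of day 2 (0.0501) or library 76 of day 6 (0.168), and it ranged from 0.00255 to 0.168. The fold itself was 1.66 without library 76 of day 6 and 5.23 without library 77 of day 6, and the change from day 2 was 9.14-fold and 2.9-fold without the same libraries. Muscle markers summed to 13.9 and 26.2 CPM on day 0, 4.73 and 1.69 on day 2, and 6.61 and 7.78 on day 6. Of those 6 markers, 1 passed the filter, Des, which made up most of each sum. Des stood at 13.2 and 25.9 CPM, 2.96 and 1.4, and 5.99 and 7.73 on the same days. In library 76, Myog, Myh4, Actn2 and Myod1 had 8, 5, 6 and 2 counts on day 0 and 13, 12, 20 and 5 on day 2. In library 77, of these only Actn2 was higher on day 2. The part of the muscle markers in the Fabp3 values was not tested.

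Of the other 7 Fabp-type carriers listed, 5 had 0 counts in every library: Fabp1, Fabp2, Fabp6, Fabp9 and Pmp2. Fabp7, the brain carrier, had 25, 15 and 7 counts on days 0, 2 and 6 and passed no comparison. Fabp12 had 0 counts on days 0 and 2 and 14 and 5 counts on day 6. Its mean CPM on day 6 was 3.92-fold the mean floor of 3 counts per library on day 0, with the libraries at 0.625 and 0.249 CPM.

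Counted over the members, 6 rose, 1 fell (Fabp3) and 1 did not pass (Slc27a3) between days 0 and 2, where 67.1% of all tested genes were called, 33.6% higher and 33.6% lower. From day 2 to day 6, 7 rose and 1 fell (Slc27a3), against 65.7% of all genes called, 38.2% higher and 27.5% lower. Day 6 against day 0 had 6 higher and 2 lower (Fabp3 and Slc27a3), against 70.9% of all genes, 35.9% higher and 35.1% lower. All 8 tested members passed the joint test for a difference between any days, which 84.8% of all tested genes passed. With backgrounds this high, the number of members called says little, and the sizes are the more informative description. The median log2 change of the 8 tested members was 2.26, 1.99 and 5.06 in the 3 comparisons, beside 0.00, 0.12 and -0.01 over all tested genes. The comparisons share their day 0, day 2 and day 6 libraries and are not independent of each other.

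**Figure D2:**
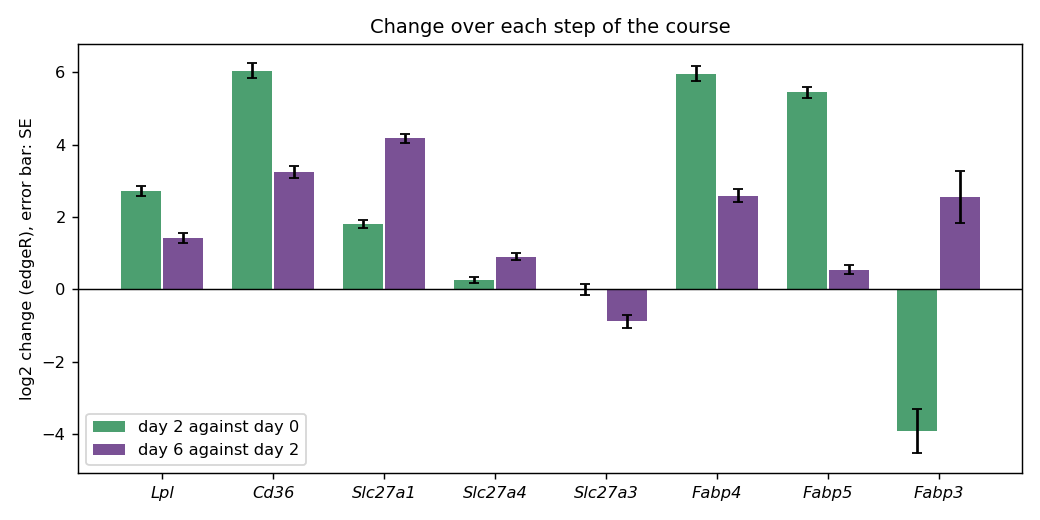
Log2 change of each tested member in the step from day 0 to day 2 and in the step from day 2 to day 6, with bars of 1 SE from the edgeR fit. Fabp5 moves by 5.44 and then 0.54, Slc27a1 by 1.81 and then 4.17.

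The course of each gene was compared between steps by testing whether the log2 change from day 2 to day 6 differed from that from day 0 to day 2. The steps differ in length and in medium, so this compares whole steps and not rates. All 8 tested members differed, 3 with a larger later value and 5 with a smaller one, and 62% of all tested genes differed, 34.7% with a larger and 27.3% with a smaller later value.

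The members led by the early step were Fabp5, Fabp4, Cd36 and Lpl. Among these 4, Fabp5 had the most uneven course, with a later change lower by -4.90 on the log2 scale (SE 0.21; adjusted p = 9.49e-07 by edgeR). For Fabp4 the difference was -3.37 (SE 0.27; adjusted p = 1.69e-05), for Cd36 -2.79 (SE 0.28; adjusted p = 5.42e-05), or -3.39 without library 77 of day 0, and for Lpl -1.29 (SE 0.22; adjusted p = 0.00107). These 4 genes still rose in the later step, and only the size of the rise was smaller.

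Slc27a1 was led by the later step, with a difference of 2.37 (SE 0.19; adjusted p = 1.93e-05 by edgeR). Slc27a4 leaned the same way by 0.65 (SE 0.16; adjusted p = 0.0084). Its call was lost with library totals (adjusted p = 0.336) and without library 77 of day 0 (0.169) or of day 2 (0.109), with a range of 0.000258 to 0.336. Slc27a3 was flat and then fell, with a difference of -0.88 (SE 0.27; adjusted p = 0.022), lost without library 76 of day 0 (0.0503), library 76 of day 2 (0.0846) or library 77 of day 2 (0.106), with a range of 3.67e-05 to 0.106. Fabp3 fell and then partly returned, a difference of 6.49 (SE 1.22; adjusted p = 0.00185). This test shares the limit that Fabp3 was tested only because of its day 0 level, so its call is given as a description.

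The make-up of each family changed with these courses. To set genes beside each other, CPM were divided by gene length (RPKM, that is CPM per kilobase of exon). The length was the union of annotated exons, and for Fabp4, Fabp5, Lpl and Slc27a1 that union takes in transcripts with retained introns and is much longer than the principal transcript (4489 against 896 bases for Fabp4). Levels by principal transcript are given beside it, an alternative chosen after seeing the data.

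Fabp4 held 51.6% and 53.4% of the summed per-length level of the Fabp family on day 0, 67.1% and 68.4% on day 2, and 89.9% and 89.4% on day 6. With principal transcripts these shares were 64.9% ± 1.37 (SD, n = 2), 74.5% ± 0.832 and 92.3% ± 0.266, higher on every day and in the same order. Fabp5 went from 36.8% and 35% on day 0 to 32.9% and 31.5% on day 2 and 10.1% and 10.6% on day 6. Fabp3 held 9.42% and 10.3% on day 0, or 2.33% and 2.53% by principal transcript, and at most 0.0305% in any later library. The ratio of Fabp4 to Fabp5 was thus 1.4 and 1.53 on day 0, 2.04 and 2.17 on day 2, and 8.89 and 8.44 on day 6, or 12.3 and 11.7 on day 6 by principal transcript.

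In the Slc27 family the leading gene changed. Slc27a4 held most on day 0, with 41.9% and 43.5%, ahead of Slc27a3 with 27.4% and 27.7%, Slc27a6 with 18% and 17.2%, and Slc27a1 with 12.6% and 11.5%. By day 6 Slc27a1 held 87.4% and 87.1%, and Slc27a4 had 11.2% and 10.3%. The day 0 order of the last 2 depended on the length used, since by principal transcript Slc27a1 held 20.9% and Slc27a6 14.6% on average. The day 2 order did too: the ratio of Slc27a1 to Slc27a4 was 0.846 and 0.824 by union length and 1.62 and 1.58 by principal transcript. At day 0 it was below 1 and on day 6 above 1 by either length (0.301 and 0.265, then 7.82 and 8.42 by union length).

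**Figure D3:**
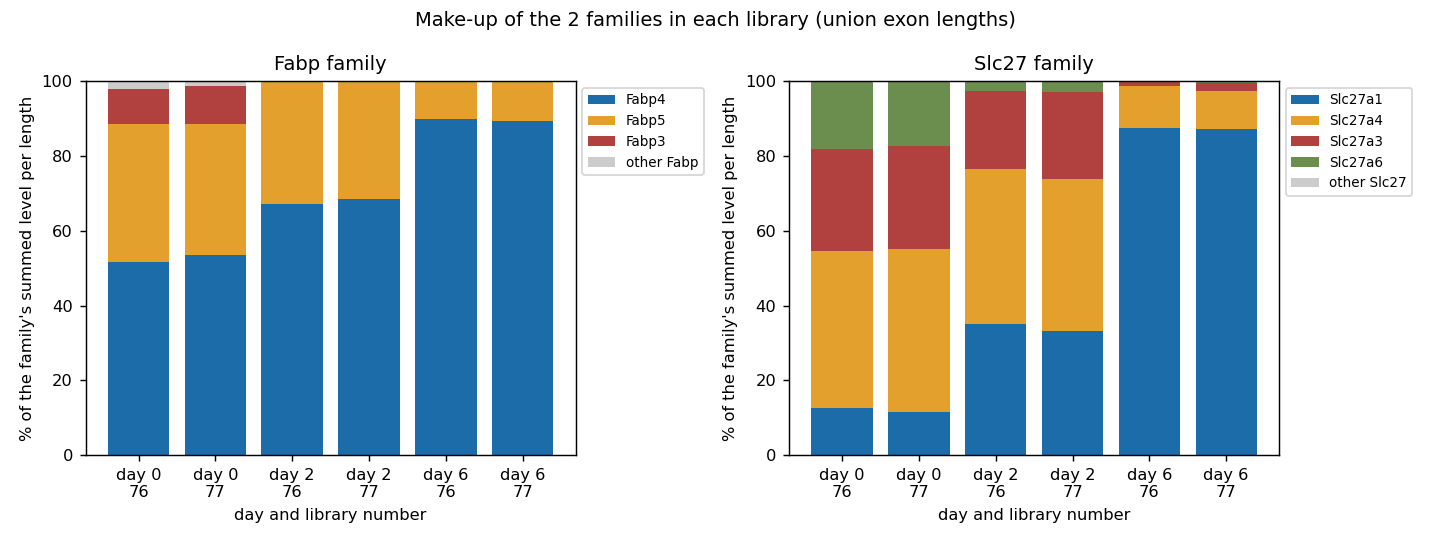
Share of each gene, in percent, in the summed per-length level of the Fabp family (left) and of the Slc27 family (right), 1 bar per library, by union exon length. Fabp4 goes from about 52.5% to 89.6% of its family on average and Slc27a1 from 12.1% to 87.2%.

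Between the lipase and the receptor, the balance moved as well. By union length, the ratio of Lpl to Cd36 was 47.8 and 35.9 on day 0, 4.42 and 3.81 on day 2, and 1.15 and 1.18 on day 6. By principal transcript it was 115 and 86.6, 10.6 and 9.19, and 2.77 and 2.83, so it fell by either length while its day 6 value rests on the length. Ranked by mean RPKM over union lengths, day 0 ran Lpl (73.8 ± 6.43), Slc27a4 (12.7), Fabp4 (10.8 ± 1.61), Slc27a3 (8.22), Fabp5 (7.37 ± 0.652), Slc27a1 (3.6 ± 0.35), Fabp3 (2.04 ± 0.376) and Cd36 (1.81 ± 0.517). Fabp3 and Cd36 overlapped there, and the neighbours from Slc27a4 to Fabp5 lay close. By principal transcript Fabp4 (54.2 ± 8.04) and Fabp5 (26.6 ± 2.36) stood above Slc27a4 (13.8) on day 0, so the middle of that order rests on the length.

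At day 2 the order by union length was Fabp4 (673 ± 27.7 RPKM), Lpl (484 ± 16.7), Fabp5 (320.1 ± 27.2) and Cd36 (118 ± 8.17), ahead of Slc27a4 (15.1), Slc27a1 (12.6), Slc27a3 (8.15) and Fabp3 (0.128). At day 6 it was Fabp4 (4039.9 ± 688), Lpl (1295 ± 121), Cd36 (1116 ± 123), Fabp5 (465 ± 62.2), Slc27a1 (228 ± 14.2), Slc27a4 (28.1), Slc27a3 (4.42) and Fabp3 (0.796 ± 0.588). By union length the day 6 means of Lpl and Cd36 were less than 2 SD apart, with the libraries at 1381 and 1210.2 RPKM for Lpl and 1204 and 1029 for Cd36. By principal transcript Lpl (3299 ± 307) stood above Cd36 (1179 ± 130.3), and Fabp5 (1681 ± 225) passed Cd36. Lpl was first on day 0 and Fabp4 on day 6 by union length, principal transcript and longest transcript. On day 2 Fabp4 was first by union length and by principal transcript, but Lpl (1231 RPKM) stood above Fabp4 (714) by longest transcript. All members together took 0.0923% and 0.105% of gene counts on day 0, 1.13% and 1.06% on day 2, and 3.6% and 3.14% on day 6.

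The partners of Lpl were followed as a list of 13 genes, of which 10 were tested. Between days 0 and 2, 2 rose and 4 fell (median log2 change -0.01), and between days 2 and 6, 7 rose and 2, Lmf2 and Angptl4, fell (median 1.95). Of the 7, Apoc1, Apoc2 and Apoc3 passed the filter on low counts only through day 6. The later count and median are thus partly bound up with that filter. For this list and those that follow, 33.6% of all tested genes rose and 33.6% fell in the early step and 38.2% rose and 27.5% fell in the later one, with medians of 0.00 and 0.12. Angptl4, an inhibitor that unfolds the lipase, measured 58.6 and 59.9 CPM on day 0, 609 and 558 on day 2, and 501 and 435 on day 6, a rise of 9.85-fold by day 2 (log2 change 3.30, SE 0.10; adjusted p = 2.7e-07 by edgeR). Its later fall of 1.25-fold (adjusted p = 0.016 by edgeR) was lost without library 76 of day 2 (0.115), with a range of 0.000261 to 0.115 over the settings. Vldlr, a receptor for triglyceride-rich lipoproteins, also rose by day 2, from 51 and 41.4 CPM to 131 and 135 (2.87-fold, SE 0.13, adjusted p = 2e-05 by edgeR). Its later rise of 1.38-fold (adjusted p = 0.0108 by edgeR) was lost with library totals (0.441) and without either library of day 2. Angptl8, a regulator of the lipase listed in the table as Gm6484, fell at first, with 3.28 and 5.4 CPM on day 0, 0.612 and 0.504 on day 2, and 11.1 and 12.6 on day 6.

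The 3 other genes of this list that fell by day 2 were Lipg, endothelial lipase, and the lipase maturation factors Lmf2 and Lmf1. Lipg measured 3.21 and 3.38 CPM on day 0, 1.46 and 1.33 on day 2, and 15.2 and 13.1 on day 6. Lmf2 fell in both steps, from 101 and 98.7 CPM to 70 and 71 and then 54 and 55.3. Lmf1, which lets newly made Lpl fold and is named to complete the count, went from 30.4 and 28 CPM to 25.8 and 24.7 and then 37.3 and 36.9.

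The apolipoproteins Apoc1, Apoc2 and Apoc3, which modulate Lpl, were higher on day 6 than on both earlier days, and Apoa5, which activates it, had 0 counts in every library. Apoc1 stood at 0.232 and 0.206 CPM on day 0, 0.204 and 0.288 on day 2, and 21.9 and 19 on day 6, an 82-fold rise in the later step (log2 change 6.36, SE 0.22; adjusted p = 2.61e-07 by edgeR). Apoc1 had 12 counts on day 0 and 14 on day 2 over both libraries and passed the filter on low counts only through day 6, so its being tested is bound up with that rise. Apoc3, an inhibitor of the lipase, and Apoc2, its cofactor, had 0 counts on day 0, and 1 and 5 counts on day 2 over both libraries. Their mean CPM on day 6 was 68.3-fold and 12.6-fold the mean floor of 3 counts per library on day 0. Both also passed the filter on low counts only through day 6, so their being tested is bound up with their rise. Of Apoc2's exonic length, 79.5% overlaps another gene, so its counts are uncertain. Gpihbp1, which carries Lpl across the capillary endothelium, had 5, 5 and 2 counts on days 0, 2 and 6 over both libraries and was not tested.

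Acyl-CoA synthetases and acyl-CoA-binding proteins trap fatty acids once they are inside. Of 13 listed, 11 were tested. By day 2, 6 rose and 3 fell (median log2 change 0.18), and in the later step 6 rose and 2, Acsl4 and Acsbg1, fell (median 0.89). Acsbg1, a synthetase known from brain, had 9, 26 and 4 counts on days 0, 2 and 6, and its early rise and later fall were lost under 8 and 3 of the 11 settings. Acsbg1 passed the filter on low counts only through day 2, so its rise and its fall are bound up with its having been tested. Acsl1, the main synthetase of adipocytes, had 29.3 and 31.2 CPM on day 0, 1844 and 1713 on day 2, and 7039 and 6517 on day 6, up 58.8-fold (log2 change 5.88, SE 0.13; adjusted p = 1.43e-07 by edgeR) and then 3.81-fold (1.93, SE 0.11; adjusted p = 1.95e-06). Dbi, the acyl-CoA-binding protein, followed later, from 64.3 and 68.6 CPM to 194 and 183 and then 1756 and 1458.

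Other synthetases took their own courses. Acsl4, which prefers arachidonate, measured 94.8 and 90 CPM on day 0, 159 and 195 on day 2 and 65.9 and 64 on day 6. It rose 1.92-fold and then fell 2.72-fold (log2 change -1.45, SE 0.10; adjusted p = 5.48e-06 by edgeR). Acbd4, an acyl-CoA-binding protein of peroxisomes, fell 1.52-fold by day 2 and then rose 10.3-fold, from 17.9 and 20.1 CPM to 13.3 and 11.6 and then 132 and 124. The other genes that fell by day 2 were Acsl6, a synthetase of brain, and Acbd3, a Golgi protein named here only to complete the count. Acsl6 had 67, 10 and 14 counts on days 0, 2 and 6 over both libraries. It passed the filter on low counts only through day 0, so its fall is bound up with its having been tested.

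**Figure D4:**
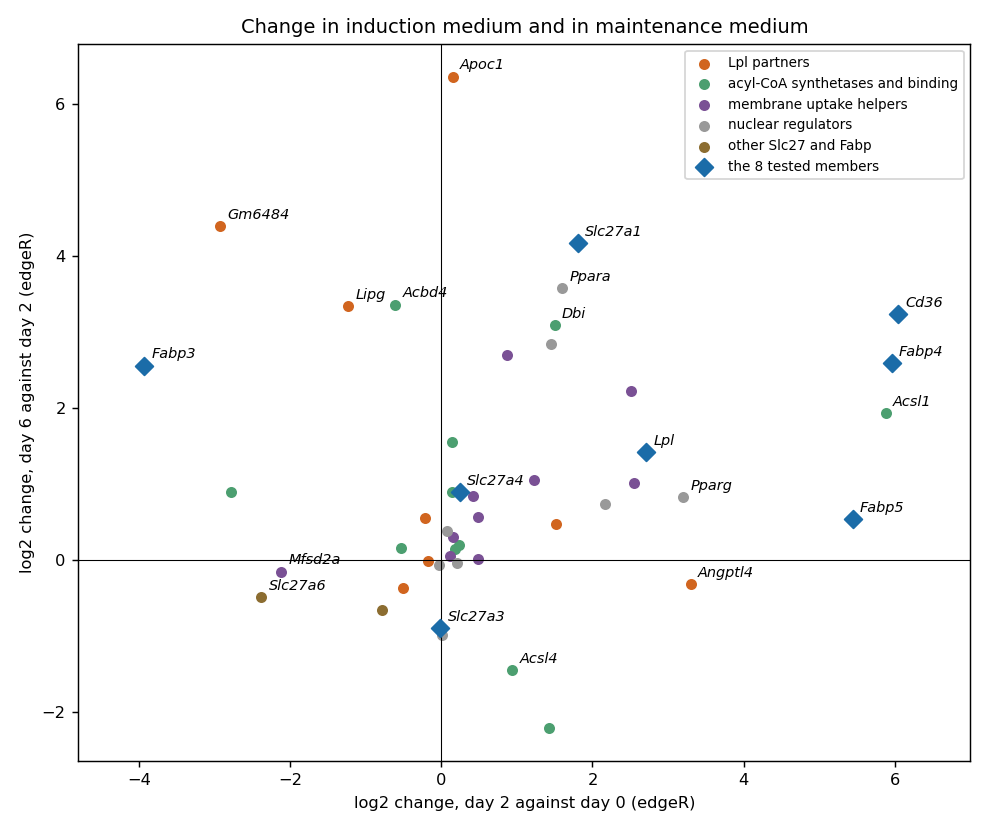
Log2 change from day 0 to day 2 (horizontal axis) against that from day 2 to day 6 (vertical axis) for the 8 tested members (diamonds) and the tested genes of the lists (circles). Apoc2 and Apoc3, with 0 counts on day 0, are not drawn. Cd36, Fabp4, Fabp5 and Acsl1 lie far to the right, and Slc27a1 lies higher than it lies right.

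Helpers of uptake at the membrane were 10 genes, all tested. By day 2, 7 rose and 1 fell (median log2 change 0.48), and in the later step 7 rose and the other 3 did not pass (median 0.71). Cav1 and Cav2, the caveolins that shape the small membrane pits of adipocytes, led the early step. Cav1 had 140.2 and 132 CPM on day 0, 826 and 762 on day 2, and 1634 and 1559 on day 6 (5.84-fold by day 2, SE 0.10; adjusted p = 4.79e-07 by edgeR). Scarb1, a scavenger receptor of the same family as CD36, rose mostly late, from 27.7 and 32 CPM to 55.8 and 53.4 and then 356 and 355. Got2, an aspartate aminotransferase also described as a fatty acid-binding protein of the membrane, had 122 and 122 CPM on day 0, 289.7 and 281 on day 2, and 598 and 589.8 on day 6. Mfsd2a, a transporter of lysophospholipids, was the gene that fell, from 2.12 and 2.02 CPM to 0.238 and 0.719, a difference of 4.34-fold (SE 0.45; adjusted p = 0.00321 by edgeR). That fold was 2.85 without library 76 of day 2 and 8.46 without library 77 of day 2.

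Nuclear regulators were a list of 8, all tested, of which 5 rose by day 2 and the other 3 did not pass (median log2 change 0.83). Among the 5, Rxra rose only 1.16-fold (adjusted p = 0.0253 by edgeR). Its call was lost without library 76 of day 0 or without either library of day 2. In the later step 5 rose and 1, Cebpb, fell (median 0.56). The later call of Cebpa was lost with library totals (adjusted p = 0.0548 by edgeR). Action of these regulators on the members was not tested. Pparg, the receptor itself, measured 11.1 and 12 CPM on day 0, 112 and 100.2 on day 2, and 203 and 173 on day 6, a rise of 9.2-fold and then 1.77-fold. Ppara, its relative that governs fatty acid oxidation, and Nr1h3, a receptor of oxysterols, rose mostly in the later step, as Slc27a1 did. Ppara went from 0.994 and 0.865 CPM to 2.52 and 3.2 and then 38.6 and 29.7, and Nr1h3 from 8.15 and 7.83 to 23.9 and 19.6 and then 165 and 147. Cebpb, a factor of early differentiation, stood at 116 and 117 CPM on day 0, 125 and 109 on day 2, and 55.3 and 64.2 on day 6.

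Tested genes that are not members were ranked by how near their course lay to that of each member. The measure was the Euclidean distance between log2 CPM over the 6 libraries, after each gene was centred on its mean, and small values mean near courses. Among the members themselves, Cd36 and Fabp4 were nearest each other, at 0.85. The gene nearest Fabp4 was Lgals12, a galectin of adipocyte lipid droplets, at 0.53, and it was also near Cd36, at 0.76. Lgals12 went from 0.364 and 0.412 CPM on day 0 to 27.5 and 20.5 on day 2 and 214 and 177 on day 6. Next to Fabp4 came Acsl1 at 0.83 and Mc5r, a melanocortin receptor, at 0.90.

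Cd36 had Sptlc3, a subunit of serine palmitoyltransferase, as its nearest gene at 0.69 and Aldh1a7, an aldehyde dehydrogenase, at 1.14. Sptlc3 had 0 counts on day 0 and stood at 4.39 and 7.41 CPM on day 2 and 67.5 and 55.7 on day 6. Its mean CPM on day 6 was 551-fold the mean floor of 3 counts per library on day 0. The genes nearest Lpl were Tmigd1 at 0.11, Mtus1 at 0.20 and Adipor2, a receptor for adiponectin, at 0.21. The distance is not scaled to the size of a gene's change, so neighbour distances of different members are not comparable. Adipor2 measured 78.5 and 81.1 CPM on day 0, 486 and 473 on day 2, and 1321 and 1166 on day 6. The places of some of these genes rest on few reads on day 0, where Tmigd1 had 8 counts over both libraries, Mc5r 2 and Sptlc3 0, and a prior count of 2 in the log2 CPM draws such genes towards a smaller change.

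Fabp5, with its early rise and small later rise, lay nearest to Ffar4, a surface receptor for long-chain fatty acids, at 0.44. Lcn2, the secreted lipocalin 2, followed at 0.51 and Ppargc1b, the coactivator PGC-1 beta, at 0.63. Ffar4 had 0.0662 and 0.124 CPM on day 0, 9.35 and 7.27 on day 2, and 15.6 and 9.73 on day 6, with 5 counts in all on day 0. Slc27a1, with its late rise, lay nearest to Chchd10, a protein of the mitochondrial intermembrane space, at 0.29, then to Pnpla3, a protein of lipid droplets, at 0.33 and Poln, a DNA polymerase, at 0.44. Pnpla3 went from 1.29 and 1.32 CPM to 5.1 and 4.42 and then 105 and 101.

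Slc27a4 was nearest to Coa3, an assembly factor of cytochrome c oxidase, at 0.10, and near Tpmt, a thiopurine methyltransferase, at 0.13. Slc27a3 was nearest to Dennd2c at 0.15, and near Zfp146 at 0.20. Fabp3 was nearest to Kcnab1, a subunit of potassium channels, at 0.53, then to A730020M07Rik at 0.55 and Ahnak2 at 0.65. Ahnak2 held 192 and 197 CPM on day 0, 15.1 and 19 on day 2, and 54.8 and 92.2 on day 6, also lowest on day 2 and between the other days on day 6.

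Several members are also known from macrophages and from capillary endothelium, so markers of both were followed. The 11 macrophage markers summed to 54.4 and 47 CPM on day 0, 67 and 35.1 on day 2, and 152 and 62.2 on day 6, with each of them present on every day. Of the 10 that were tested, 6 stood higher on day 6 than on day 0 and the other 4 did not pass. In that comparison 35.9% of all tested genes were higher and 35.1% lower. The sum was higher in library 76 on each day. Lyz2 made up much of it, at 29.7 and 25 CPM on day 0, 40.9 and 19.4 on day 2, and 83.3 and 35.5 on day 6. The 8 endothelial markers summed to 35.9 and 31.1 CPM on day 0, 6.94 and 6.65 on day 2, and 12.6 and 16 on day 6. All 6 that were tested were lower on days 2 and 6 than on day 0. So were 33.6% of all tested genes on day 2 and 35.1% on day 6. Tek alone stood at 22.6 and 20.6 CPM on day 0, 1.46 and 1.87 on day 2, and 7.68 and 11.5 on day 6. From day 2 to day 6, 1 of the 6, Tek, rose, 1, Cdh5, fell, and 4 did not pass. At day 6 Cd36 stood at 4321 and 3695 CPM and Fabp4 at 20320.5 and 15950. CPM of different genes are not corrected for length. The marker sums also do not show how much Cd36 or Fabp4 RNA such cells held. The part of either cell type in the members' values was not tested.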

How the data were processed

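RNA was measured in 6 libraries, 2 per day, grouped by the day in their titles. Per the submitters' processing notes, the authors aligned reads with TopHat2 2.0.13 and counted them with HTSeq 0.9.1, on the builds mm10 and GRCm38. Annotation, counting mode and strandedness are not stated in any source used here, so reads from overlapping or antisense genes may not be separable. RNA was selected for poly(A) and broken into fragments of about 200 bp, per the labels' protocols. The deposited values are raw read counts per gene, although the column names say RPKM. Counts in genes were 22522221 to 29458374 per library, and HTSeq's summary lines stayed out of library sizes: 2.62% to 3.23% outside any feature, 4.4% to 4.91% ambiguous and 4.16% to 9.05% not uniquely aligned. PCR reads lack molecular identifiers, so the floor of 3 counts covers counting error only. Replicate libraries differed by more than counting noise (chi-square per degree of freedom 6.75, 7.53 and 26.3 on days 0, 2 and 6).

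Genes were tested with edgeR 4.0.16 (R 4.3.3), with TMM scaling and filterByExpr with its minimum count of 10, so that 14459 genes were tested and 31349 were not. The quasi-likelihood fit took all libraries, with a mean per day, no covariate, 3 residual degrees of freedom and a common biological coefficient of variation of 0.083. Adjustment was by Benjamini-Hochberg over all tested genes with a threshold of 0.05, and SE is the absolute log2 change over the root of F. The fitting procedure was also run on simulated counts with a single common spread and few changed genes. Those settings differ from these data, so that run cannot show how the test behaves here. Lengths, positions and coding sequences came from GENCODE M21 and promoters from RefSeq. Alternatives were DESeq2 1.42.0, other scalings, no filter, a replicate block and leaving out each library. Same-numbered libraries deviated together (Pearson's r across genes 0.109, 0.112 and 0.213, Spearman's rho 0.0589, 0.0546 and 0.176), each r above the limit of 0.1 used for pairing. No source used here says what the numbers mark. The reported fit carries no block, and the blocked fit is an alternative.

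The members and lists were chosen with earlier results of these data known. Genes named are the members, for each tested member the 3 nearest tested genes (some are not reported here), and from each list up to 5 called genes with the largest change in a comparison. Genes named to complete a count of 5 or fewer were named after their values were seen.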

Additional observations from a re-analysis of the deposited data

How the results depend on the processing

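Directions of the members' called changes held under all 11 alternative settings, and the calls that were lost are given with their results above. Of the 14459 genes, 9847, 9669 and 10356 were called with the replicate block for day 2 against day 0, day 6 against day 2 and day 6 against day 0, beside 9704, 9501 and 10253 without it, and the block changed no call of a member. Members called lower at day 6 against day 0 were 2, but 1 with DESeq2 and 1 to 2 when each library was left out, since Fabp3 lost its call. With library totals in place of TMM, the median log2 change of all genes was 0.12, -0.23 and -0.26 in place of 0.00, 0.12 and -0.01, and 3 values that passed the threshold in either fit changed sign: Rxra at day 6 against day 0 (-0.074) and the step differences of Lmf2 (-0.34) and Lypla1 (-0.046). The uncalled change of Slc27a3 from day 0 to day 2 lay on both sides of 0, from -0.02 to 0.11 over the settings.

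Family shares moved with the length used. The share of Fabp4 on days 0, 2 and 6 was 52.5%, 67.8% and 89.6% by union length, 63%, 72.6% and 91.6% from counts without length, and 64.9%, 74.5% and 92.3% by principal transcript. The share of Slc27a1 was 12.1%, 34.2% and 87.2% by union length, 19.2%, 47% and 92% by longest transcript, 18.9%, 44.9% and 90.6% without length, and 20.9%, 49.6% and 92.9% by principal transcript. Of 27 levels per length, 16 moved by more than the spread between libraries by principal transcript, 14 with library totals and 13 by longest transcript. Among the tested members depth limits Fabp3, with at most 46 counts in any library, and genes with fewer counts are limited likewise.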

Other observations

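Fabp5, Pmp2, Fabp9, Fabp4 and Fabp12 lie in a row on chromosome 3 of GRCm38, between 10012548 and 10301183, and their counts differed by orders of magnitude. On day 6 the table holds 40651 and 30119 counts for Fabp5 and 454835 and 319806 for Fabp4, while Pmp2 and Fabp9, which lie between them, had 0 counts in every library. Of their exonic length, 86.9% for Pmp2 and 53% for Fabp9 overlaps another annotated gene, so reads there may not have been assigned. Fabp12, next to Fabp4, had 0 counts on days 0 and 2 and 14 and 5 counts on day 6. Gm9833, a coding gene between Fabp5 and Pmp2, had 7 and 6 counts on day 0, 23 and 19 on day 2, and 5 and 4 on day 6.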
